A study of Mus musculus with 6 samples.

Results

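The comparison sets all 4 arrays from mice that had a single electroconvulsive seizure (ECS) against the 2 arrays from sham-handled mice, and describes the gene expression differences that held at both times after the seizure. The tissue was the paraventricular nucleus of the hypothalamus (PVN) of C57Bl/6 mice, cut out by laser from frozen sections. The members were chosen by the sample titles alone. The 4 ECS arrays (2 at 2 h and 2 at 6 h after the shock) and the 2 sham arrays (2 h after handling) make up all 6 arrays of the series. The mice of both sides were anaesthetised with isoflurane and handled alike, and the ECS mice received bilateral current through ear clips at 25 mA for 1 s. Each array holds amplified RNA pooled from 2 to 3 animals, and the arrays were run in 2 rounds with different animals, here called run 1 and run 2 after the replicate number. Age and sex were not given in the sources used here. There was no sham group at 6 h, so time of day and time since the seizure cannot be told apart in the 6 h arrays.

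The PVN holds the large neurons that release oxytocin and vasopressin into the blood and the small neurons whose releasing factors start the pituitary stress and thyroid axes. A generalized seizure drives neurons into intense firing, which within minutes switches on transcription factors of the AP-1 and Egr families. These in turn act on genes for secreted peptides, synaptic proteins and signalling enzymes. AP-1 is a pair of Fos and Jun (or related Maf and ATF) proteins that binds a short palindrome in promoters and enhancers. A set of antioxidant genes is controlled through a related motif, the antioxidant response element, by the factor NRF2.

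Expression values are log2(signal + 16) after quantile normalization, a scale on which the lowest possible value is 4, so differences between dim probe sets are shrunk toward 0. A difference is the mean of the 4 ECS arrays minus the mean of the 2 sham arrays, with its standard error (SE) from limma. Several genes that mark the nucleus were present on both sides. Oxt (oxytocin) stood at the percentile 96.8 of all tested genes in the sham arrays, Avp (vasopressin) at 91.7, Trh (thyrotropin-releasing hormone) at 90.5 and Sim1, a transcription factor needed to form the PVN, at 74.7. Sim1 was named after its values were seen. Pou3f2, another PVN gene ranked in the same way, stood at only 13.3. Otp, a further developmental factor of the nucleus, did not meet the signal filter. It lay between 4.19 and 5.03 on all arrays. The median deposited signal per array ran from 25.2 to 40.8. Replicate 1 at 6 h had the lowest mean rank correlation with the other arrays, 0.887 against 0.906 to 0.919, and the highest ratio of 3′ to 5′ signal for Gapdh, 14.1 against 6.43 to 10.5.

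Across 12662 tested probe sets, the short oligonucleotide sets that each report 1 transcript or a few, limma found 0 (0%) that differed between ECS and sham at an adjusted p under 0.05. The smallest adjusted p was 0.151, for Srxn1. Counted by an unadjusted p under 0.05 instead, 555 passed, and 230 (1.82% of those tested) were higher and 325 (2.57%) lower after ECS. A test at that level gives 633 on average if nothing differs. The 4 ECS arrays lay above both sham arrays for 762 probe sets (6.02%) and below both for 867 (6.85%). With a difference of at least 2-fold besides, 70 (0.553%) were higher and 138 (1.09%) lower. If the arrays were interchangeable, each direction without overlap would hold for 1 in 15 probe sets on average. That share of 0.0667 is near the 6.02% and 6.85% found. With 2 sham arrays the exact permutation test over the 15 ways to choose 2 of 6 arrays cannot go below 0.0667 for any single gene, so the differences below are measured values and not calls unless stated. When replicate 2 at 6 h was left out, limma called 10 probe sets at an adjusted p under 0.05, 1 higher (Srxn1) and 9 lower, from Mef2c (4 probe sets), Lamp5, Ptgds, Kalrn, Rasgrp1 and Enc1. The fit to all 6 arrays called 0. The array left out was the ECS array nearest to sham for 85 of the 138 lower probe sets, so leaving it out tends to enlarge such differences. Enc1, an actin-binding protein of neurons, was named after its values were seen.

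The 70 higher probe sets had a median level of 5.28 in sham and 6.52 after ECS, and the 138 lower ones 6.98 and 5.59. The side with the lower signal was often near the floor, with a sham mean under 5 for 21 of the 70 and an ECS mean under 5 for 29 of the 138. Of the 138 lower probe sets, replicate 2 at 6 h was the ECS array nearest to sham for 85, with a median difference of -0.896 from the sham mean, against -1.34 and -1.28 on the 2 h arrays and -1.62 on replicate 1 at 6 h. The 70 and 138 probe sets carried 63 and 108 different gene symbols. Where a gene had several tested probe sets, all of them lay on the same side without overlap for 4 of 40 genes on the higher side and 15 of 58 on the lower side.

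Srxn1, which encodes sulfiredoxin, the enzyme that repairs over-oxidised peroxiredoxins, had the smallest p of all probe sets. It stood at 6.30 and 6.50 in sham, while the ECS arrays read 8.90 and 8.28 (2 h) and 8.90 and 8.24 (6 h). Every ECS array was far above both sham arrays, and the 6 h and 2 h levels differed by -0.02 ± 0.373 (SE). The difference from sham was 2.18 ± 0.304, a 4.54-fold higher signal (limma unadjusted p = 1.2e-05, adjusted p = 0.151). It was 2.60 within run 1 and 1.77 within run 2, and 2.08 without replicate 1 at 6 h. Over 18 alternative settings it ran from 1.36 to 2.41 with a limma adjusted p from 0.0248 to 1.00, and in the blocked fit by replicate number its limma adjusted p was 0.0807. Of the 4 tested Srxn1 probe sets 3 showed no overlap, with differences of 2.18, 1.82 and 1.03, and the fourth had a difference of 0.397 with overlapping arrays.

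The promoters of the 12 genes with the smallest p among those higher without overlap were searched on both strands, since AP-1 factors are induced by seizures and Srxn1 is a textbook NRF2 and AP-1 target. The window ran from 250 bases before to 50 after the RefSeq start of GRCm38.p6, and 10 of the 12 genes had at least 1 window. Motifs were the AP-1 palindrome TGANTCA, the cyclic AMP response element TGACGTCA, the antioxidant response element core TGACNNNGC and, by name, the glucocorticoid response element and the CArG box. The AP-1 motif was found in 1 of the 10 genes and in 7.81% of all 32851 windows, and the antioxidant core in 3 of 10 genes and 12.4% of windows. The first figures count genes with the motif in any window and the second count windows, so they are not in the same unit. Agbl5 had 4 windows and Ctnnb1 had 2, and the Ctnnb1 core lay in only 1 of them. No window of the 10 genes held the cyclic AMP element (1.79% of all windows), the glucocorticoid element (0.00913%) or the CArG box (1.63%). The Srxn1 window on chr2:152105274-152105573 (plus strand) held 2 AP-1 motifs, which begin 102 and 45 bases before the start, and 1 antioxidant core 28 bases after it. The Rasgrf1 window on chr9:89909525-89909824 (plus strand) held 1 antioxidant core, 138 bases before the start, and that of Tnfrsf12a on chr17:23677400-23677699 (minus strand), a gene whose 2 probe sets were both higher without overlap, held none of these letters. The 3 windows are shown 5′ to 3′ with AP-1 motifs and antioxidant cores in capitals, to set the promoter of the transcript with the smallest p beside those of 2 other higher genes. These are letter matches and not measured binding.
Srxn1: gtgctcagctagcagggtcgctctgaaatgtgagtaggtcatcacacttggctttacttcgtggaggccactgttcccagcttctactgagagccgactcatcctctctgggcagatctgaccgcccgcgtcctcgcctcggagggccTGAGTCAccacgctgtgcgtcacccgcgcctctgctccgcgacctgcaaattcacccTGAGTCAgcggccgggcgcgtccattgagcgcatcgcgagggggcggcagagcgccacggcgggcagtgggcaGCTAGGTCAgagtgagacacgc
Rasgrf1: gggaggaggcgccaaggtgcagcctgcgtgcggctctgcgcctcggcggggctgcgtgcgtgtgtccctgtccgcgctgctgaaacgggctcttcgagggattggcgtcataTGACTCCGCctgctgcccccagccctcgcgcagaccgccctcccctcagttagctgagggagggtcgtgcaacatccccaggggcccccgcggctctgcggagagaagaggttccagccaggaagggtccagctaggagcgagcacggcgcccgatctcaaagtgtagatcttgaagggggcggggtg
Tnfrsf12a: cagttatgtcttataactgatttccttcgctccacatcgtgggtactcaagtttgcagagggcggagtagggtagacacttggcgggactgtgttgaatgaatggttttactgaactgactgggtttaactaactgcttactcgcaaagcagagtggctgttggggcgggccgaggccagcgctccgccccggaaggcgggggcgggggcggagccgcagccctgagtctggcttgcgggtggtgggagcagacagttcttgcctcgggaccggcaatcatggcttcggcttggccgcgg

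Tnfrsf12a encodes the receptor of the cytokine TWEAK. It stood at 4.85 and 4.21 in sham, 6.54 and 6.43 at 2 h, and 5.67 and 6.32 at 6 h. The sham arrays were near the floor and all 4 ECS arrays above them, a difference of 1.71 ± 0.396 that was 3.10 with an offset of 1 and 0.799 with an offset of 64 in place of 16. Rasgrf1, an exchange factor that activates Ras on calcium signals, read 7.92 and 7.98 in sham and 8.71, 9.16, 8.96 and 8.66 after ECS. The sham arrays were close together and every ECS array lay above them (0.92 ± 0.249), while the 3 probe sets of the gene had differences of 0.92, 0.49 and -0.107. Atf4, a transcription factor translated under stress, was at 7.02 and 7.58 in sham and at 8.76, 7.97, 8.42 and 8.32 after ECS on its dimmer probe set (1.07 ± 0.303), and its brighter probe set gave 0.0100 with overlapping arrays. Sharpin, a subunit of the linear ubiquitin ligase that feeds NF-kappaB, was 2.20-fold higher (1.14 ± 0.299) on its brighter probe set. Its other probe set gave 0.517 with overlapping arrays. Avl9, a protein of secretory transport, was 2.02-fold higher (1.02 ± 0.293).

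The 6 remaining genes of the 12 had differences between 1.26 and 1.84. Sf3a2, a splicing factor subunit, was at 1.84 ± 0.413, Ddx39a, an RNA helicase, at 1.26 ± 0.339, Agbl5, a tubulin deglutamylase, at 1.53 ± 0.388, and Cpne2, a calcium-dependent membrane-binding protein, at 1.42 ± 0.378. Other probe sets of the same gene did not always show the difference. For Agbl5 the probe set given was dim in sham (4.75 and 5.03), and its brighter probe set gave 0.153 with overlapping arrays. For Ddx39a 3 of 4 tested probe sets had no overlap, and the remaining one gave 0.409. For Rpl37a, a ribosomal protein, the probe set with a difference of 1.68 was near the floor in sham (4.50 and 4.53), and its bright probe sets, above 10.8 on all arrays, gave 0.112 and 0.0921. For Ctnnb1 (beta-catenin), which links cadherins and Wnt signalling, the dim probe set gave 1.61, whereas the bright one gave -0.101 with all 4 ECS arrays below sham and the third gave -0.498 with overlap. Of these 12 genes, 5 (Tnfrsf12a, Rpl37a, Agbl5, Ctnnb1 and Cpne2) met the signal filter through ECS arrays alone, so a difference was built into their selection.

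**Figure D1:**
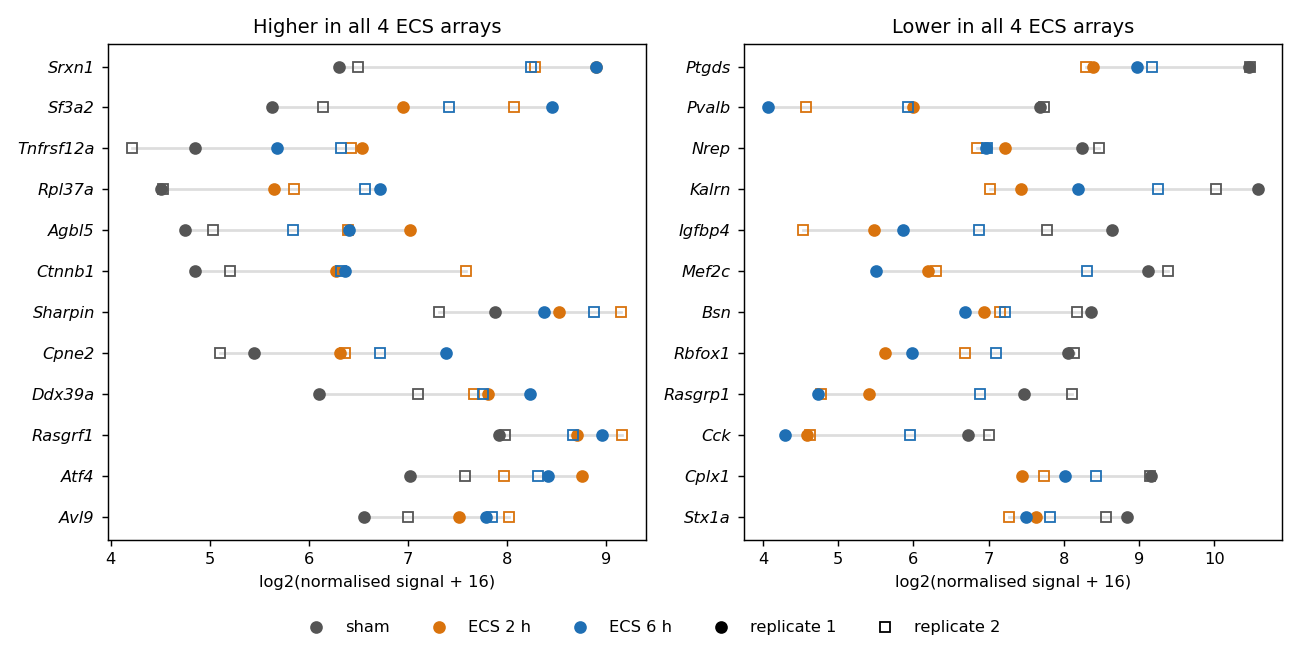
Log2(normalised signal + 16) of the 12 higher and 12 lower genes of smallest p without overlap (horizontal axis) on each of the 6 arrays, with grey for sham, orange for ECS at 2 h, blue for ECS at 6 h, filled circles for replicate 1 and open squares for replicate 2. No ECS point crosses a sham point because the genes were chosen so. Srxn1 lies at 8.24 or above in all ECS arrays against 6.50 or below in sham, and Ptgds at 9.17 or below against 10.46 or above.

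On the lower side Ptgds came first. It encodes the synthase that makes prostaglandin D2 in the brain and is abundant in meninges, choroid plexus and oligodendrocytes. Its signal was 10.46 and 10.47 in sham, 8.38 and 8.29 at 2 h, and 8.98 and 9.17 at 6 h. The sham arrays nearly coincided and each ECS array was well below them, with the 6 h arrays between the 2 h and the sham level. The difference was -1.76 ± 0.271, or 3.39-fold lower (limma unadjusted p = 3.17e-05, adjusted p = 0.201, and over 18 alternatives from 0.0207 to 1.00). It was -1.78 within run 1, -1.74 within run 2 and -1.85 without replicate 1 at 6 h. The second Ptgds probe set also had no overlap (-1.29). At 6 h the signal was 0.73 ± 0.248 above that at 2 h (unadjusted p = 0.0135, limma adjusted p = 0.999). Ttr, the defining transcript of choroid plexus, did not meet the filter and lay between 4.49 and 5.16 on all arrays, near the floor. Slc6a13, on the same list of choroid plexus, ependyma and meninges, did not meet it either. It read 5.57 and 5.15 in sham and 4.21 to 4.92 after ECS (-0.807). Of the 11 list genes on the array, taken without the filter, 5 were higher and 6 lower. Without overlap 1 lay above sham and 2 below, against 6.58% and 6.34% of all genes.

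Of the 12 lower genes of smallest p, Mef2c and Kalrn were on the list of cortex and hippocampus neuron genes, as was Lamp5. Mef2c, a transcription factor of excitatory forebrain neurons, was at 9.11 and 9.38 in sham, 6.19 and 6.30 at 2 h, and 5.51 and 8.31 at 6 h. The other 3 ECS arrays were much farther from sham than replicate 2 at 6 h, which was yet below both sham arrays. The difference was -2.67 ± 0.592 (6.37-fold lower, or -2.32 without replicate 1 at 6 h), and all 5 Mef2c probe sets lay below sham without overlap, from -1.80 to -3.03. Lamp5, a membrane protein of cortical neurons, read 8.27 and 8.82 in sham and 5.51, 4.86, 4.11 and 7.64 after ECS (-3.01 ± 0.729, or -2.54 without replicate 1 at 6 h). Again 3 ECS arrays were low and the same array, replicate 2 at 6 h, was intermediate. Kalrn, an exchange factor for Rac in dendritic spines, read 10.58 and 10.01 in sham, 7.43 and 7.02 at 2 h, and 8.18 and 9.24 at 6 h (-2.33 ± 0.49). Here the 6 h arrays were higher than the 2 h arrays by 1.49 ± 0.388 (unadjusted p = 0.00293, limma adjusted p = 0.999). Only 1 of its 2 tested probe sets showed the difference, while the other gave 0.123.

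The whole list of cortex and hippocampus neuron genes had 27 entries, of which 23 are on the array and 18 were tested. Of the 18, 16 were lower (49.6% of all tested genes were) and 2 higher (50.4%) after ECS, and 12 lay below sham in all 4 ECS arrays (6.75% of all tested genes did) and 2 above (6.29%). The median difference was -0.951, against 0.00 for all 7332 tested genes, and -0.694 over the 23 without the filter, where the same 12 and 2 counts stood against 6.34% of all genes below and 6.58% above. Cux2 and Itpka, both lower, met the filter through the sham arrays alone. It was -1.18 within run 1, -0.946 within run 2 and -0.835 without replicate 1 at 6 h. The summed signal of the 23 genes was 6855 and 7365 in sham, 3775 and 3424 at 2 h, and 3923 and 5358 at 6 h, so every ECS array was lower and replicate 2 at 6 h was the nearest to sham. Nrgn (neurogranin), a postsynaptic calmodulin-binding protein, differed by -2.00 ± 0.488, and Tbr1, a transcription factor that marks cortical projection neurons and is named here after its values were seen, by -1.92 ± 0.523. Camk2a, a subunit of the calcium-activated kinase CaMKII, read 8.88 and 9.11 in sham, 5.73 and 6.78 at 2 h, and 7.19 and 8.79 at 6 h (-1.87 ± 0.614). Hpca (hippocalcin), a calcium sensor of hippocampal neurons, was at -1.07 ± 0.343, and only 1 of its 2 tested probe sets lay below sham without overlap. The 2 higher members, both without overlap, were Rasgrf1 (0.49, on its brightest probe set) and, named after its values were seen, Wfs1 (0.58 ± 0.266), a membrane protein of the endoplasmic reticulum that marks hippocampal field CA1 and is also made elsewhere. In a dissected nucleus, fewer cells of a type and less RNA per cell cannot be told apart. The amount of neighbouring tissue in each pool was not tested.

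**Figure D2:**
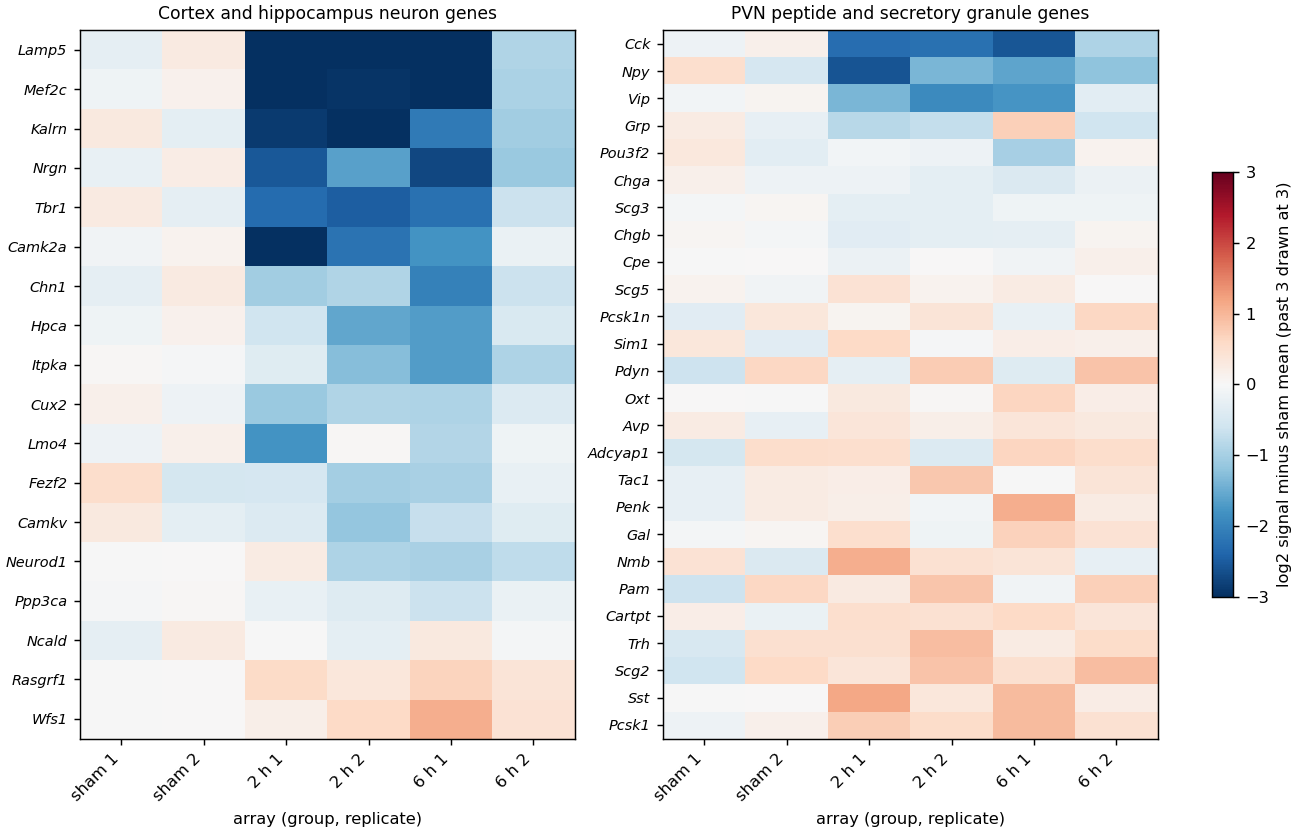
Log2 signal minus the sham mean of each gene (colour, blue lower and red higher, values past 3 drawn at 3) for the 18 tested cortex and hippocampus neuron genes and the 26 tested PVN peptide and secretory granule genes, with 1 column per array. In the first panel the ECS columns are blue for most genes and palest in replicate 2 at 6 h, and in the second panel 3 peptides (Cck, Npy and Vip) stand out as blue among genes close to sham or above it.

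A further 4 of the 12 lower genes belong to neurons more widely. Pvalb (parvalbumin), the calcium buffer of fast-spiking interneurons, was at 7.68 and 7.73 in sham and at 5.99, 4.57, 4.07 and 5.92 after ECS. The sham arrays coincided and the ECS arrays were spread over almost 2 log2 units below them (-2.57 ± 0.529, or -2.21 without replicate 1 at 6 h). Rasgrp1, an exchange factor for Ras activated by diacylglycerol, was lower on all 3 probe sets without overlap (-2.34 ± 0.546 for the probe set of smallest p). Rbfox1, a neuronal splicing factor, stood at 8.05 and 8.13 in sham and between 5.62 and 7.10 after ECS (-1.75 ± 0.405). Nrep, a small neuronal protein linked to regeneration, stood at 8.24 and 8.46 in sham and at 7.22, 6.85, 6.96 and 6.98 after ECS (-1.35 ± 0.279). Its second probe set gave -1.07.

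Igfbp4, which binds insulin-like growth factors and withholds them from their receptor, was lower without overlap on all 5 tested probe sets. The probe set of smallest p read 8.64 and 7.78 in sham, 5.48 and 4.53 at 2 h, and 5.87 and 6.87 at 6 h. All ECS arrays were low and those at 6 h less so (difference -2.53 ± 0.536, or 5.77-fold lower, and 1.37 ± 0.501 between 6 h and 2 h with limma adjusted p = 0.999). Igfbp2, another member of the family, stood at 5.74 and 6.05 in sham and between 4.82 and 5.01 after ECS (-0.96 ± 0.383), although it met the filter through the sham arrays alone. The insulin receptor Insr was at 0.78 ± 0.364. Over the 11 tested genes of the insulin-like growth factor system 6 were higher and 5 lower, with a median of 0.227 that was 0.673 without sham replicate 1 and -0.219 without sham replicate 2. Its direction thus depended on which sham array was used.

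Proteins of synaptic vesicle release were mostly lower. Of 20 tested genes 15 were lower and 5 higher, with a median of -0.378, where 49.6% of all tested genes were lower. Without overlap 6 lay below sham (6.75% of all genes) and 0 above (6.29%). Cplx1 (complexin 1), a clamp on the fusion machinery, read 9.15 in both sham arrays, whereas the 2 h arrays read 7.44 and 7.73 and the 6 h arrays 8.01 and 8.43. All ECS arrays were lower and the 6 h arrays stood between (-1.25 ± 0.30, with both probe sets below). Bsn (bassoon), a scaffold of the active zone, was at 8.36 and 8.17 in sham and at 6.94, 7.15, 6.68 and 7.21 after ECS, about alike at both times (-1.27 ± 0.29). Stx1a (syntaxin 1A), the membrane receptor for vesicles, was at 8.84 and 8.56 in sham and at 7.63, 7.27, 7.49 and 7.81 after ECS (-1.15 ± 0.276, both probe sets below). Snap25, its partner and among the brightest genes, differed by only -0.36 ± 0.109, from 12.74 and 12.54 to between 12.05 and 12.43. The general neuron markers, 23 tested, had 19 lower (49.6% of all tested genes were) and 4 higher with a median of -0.208. Among them 6 lay below sham without overlap and 1 above, against 6.75% and 6.29% of all genes. Thy1, a glycoprotein anchored on the neuronal surface, differed by -0.41 ± 0.177, and Rbfox3 (NeuN), named after its values were seen, at -0.97 ± 0.505.

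Genes of excitability followed the same side, where 49.6% of all tested genes were lower. Of 18 tested calcium pump, channel and calcium-binding genes 12 were lower, with 5 below and 2 above sham without overlap (6.75% and 6.29% of all tested genes). The median of -0.184 was -0.0113 within run 1, -0.263 within run 2 and -0.366 without sham replicate 1. Atp2b2, a plasma membrane calcium pump, was at -1.11 ± 0.322 and read 10.25 and 9.49 in sham against 8.33, 8.39, 9.34 and 8.95. Only this 1 of its 3 tested probe sets lay below sham without overlap. Of 15 tested potassium and sodium channel genes 12 were lower, 5 of them without overlap (6.75% of all genes), and 0 were above sham without overlap (6.29%). Their median was -0.232, or -0.463 without sham replicate 1. The sodium channels Scn2a and Scn1a were at -0.76 ± 0.249 and -0.86 ± 0.313, and the leak channel Kcnk1 at -0.66 ± 0.292. For each of these channels only 1 of 2 tested probe sets lay below sham without overlap. Of 12 glutamate and GABA receptor genes 9 were lower (median -0.21, which was -0.425 within run 1 and -0.0127 within run 2), among them Gabrd, a subunit of extrasynaptic GABA receptors (-0.998 ± 0.417). On that list 2 genes lay below sham without overlap (6.75% of all genes) and 0 above (6.29%). The 2 enzymes that make GABA differed in size. Gad1 was at -1.21 ± 0.511 with overlapping arrays and Gad2 at -0.22 ± 0.246.

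Of the peptides named here, Oxt, Avp, Trh and Sst lay near sham or above it, while Cck, Npy and Vip lay below it. Oxt was at 10.86 and 10.82 in sham and at 11.13, 10.87, 11.49 and 11.03 after ECS. Each ECS array was higher than both sham arrays, with replicate 2 at 2 h only just so (0.29 ± 0.165, or 0.17 without replicate 1 at 6 h). Avp was at 0.30 ± 0.188 and Trh at 0.55 ± 0.269, both with overlap. With 1 array left out Avp ran from 0.0615 to 0.536 and Trh from 0.0607 to 1.04. Sst (somatostatin), which restrains growth hormone, read 8.85 and 8.87 in sham and 10.02, 9.20, 9.81 and 9.08 after ECS (0.67 ± 0.28), with run 1 showing 1.07 and run 2 0.27. Pcsk1, the convertase that opens prohormones, read 7.88 and 8.16 in sham and 8.76, 8.58, 8.96 and 8.47 after ECS (0.67 ± 0.255), at both times alike. Sst and Sim1 were named after their values were seen. Sim1 was at 0.23 ± 0.29.

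Of the 26 tested PVN peptide and secretory granule genes 17 were higher (50.4% of all tested genes were) and 9 lower. Without overlap 4 lay above and 4 below sham (6.29% and 6.75% of all tested genes). The median was 0.268, or 0.0526 without sham replicate 1, 0.179 without sham replicate 2 and 0.226 without replicate 1 at 6 h. The lower ones with the smallest p were the peptides Cck, Npy and Vip. Cck (cholecystokinin) was at 6.72 and 7.01 in sham and at 4.59, 4.63, 4.30 and 5.95 after ECS (-2.00 ± 0.479). Npy (neuropeptide Y) was at 7.18 and 6.16 in sham and between 4.07 and 5.46 after ECS (-1.69 ± 0.479), and Vip (vasoactive intestinal peptide) at -1.34 ± 0.502. All 3 had ECS arrays near the floor of 4, and Npy met the filter through the sham arrays alone.

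Early transcription factors did not hold 1 level across the times. Of 19 tested members 11 were higher (50.4% of all tested genes were) and 8 lower. The median difference of 0.18 was made of 0.632 at 2 h and -0.304 at 6 h. Over the alternatives the median ran from -0.162 to 0.366. Both times share the same sham arrays, so these are values side by side. Klf2 and Cebpd, besides Fos and Fosb below, met the filter through ECS arrays alone. Jun, the partner of Fos in AP-1, was above sham at both times, with 8.53 and 7.61 in sham, 9.08 and 9.38 at 2 h, and 8.96 and 8.58 at 6 h (0.93 ± 0.312, or 0.49 within run 1 and 1.37 within run 2), and both of its probe sets had no overlap. Fos read 5.04 and 5.02 in sham, 7.25 and 6.81 at 2 h, and 5.32 and 5.83 at 6 h. It too had no overlap (1.27 ± 0.503), with a difference of -1.45 ± 0.419 between 6 h and 2 h, although it met the filter through ECS arrays alone. Fosb and Maff were high at 2 h (2.02 and 1.96 above sham) and at the sham level at 6 h (0.05 and -0.09), and Fosb, like Fos, met the filter through ECS arrays alone. Egr1, a zinc finger factor, differed from sham by 0.95 at 2 h and -0.58 at 6 h, so that its difference over both times was 0.18 ± 0.466. The contrast of 6 h with 2 h, which does not use the sham arrays, gave 438 probe sets (3.46%) at an unadjusted p under 0.05 and 0 (0%) at an adjusted p under 0.05 in limma. Within it Maff was at -2.05 ± 0.432 (unadjusted p = 0.000664) and Egr1 at -1.53 ± 0.324 (unadjusted p = 0.000681), both with an adjusted p of 0.999.

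**Figure D3:**
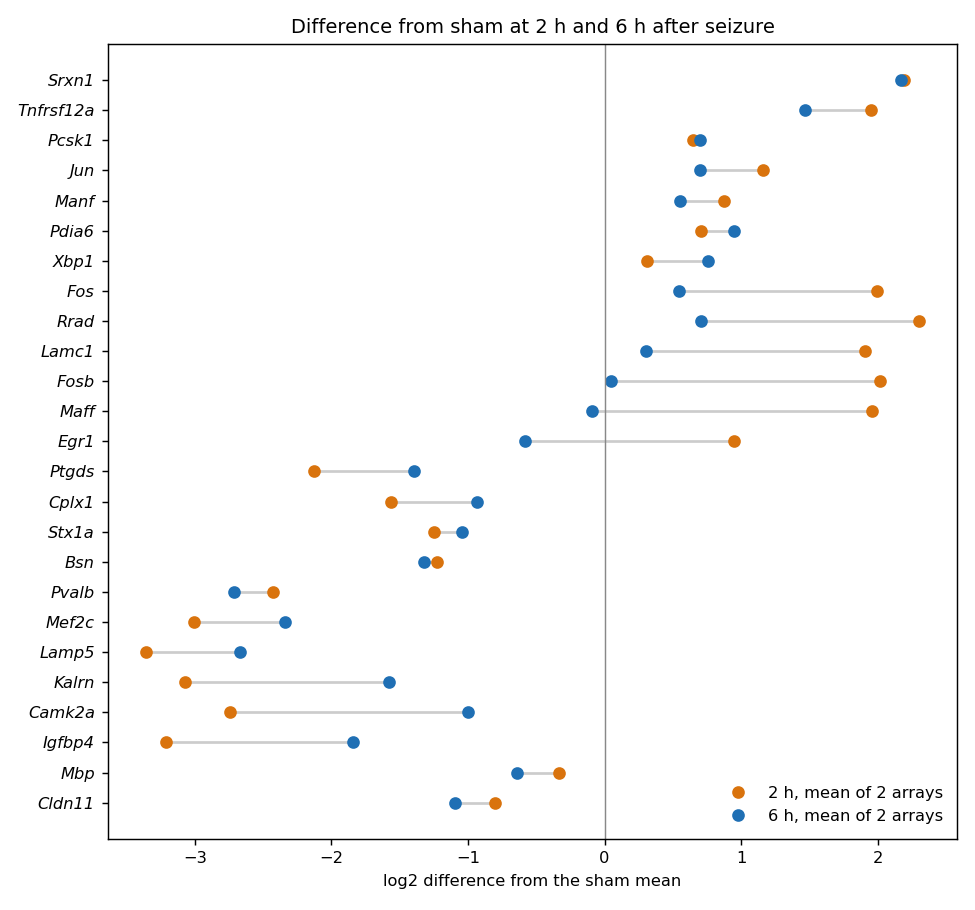
Log2 difference from the sham mean (horizontal axis) at 2 h (orange) and 6 h (blue), each the mean of 2 arrays, for 25 named genes, with a grey line joining the times of a gene. Srxn1, Pcsk1, Bsn and Stx1a have their points close together, whereas Fos, Rrad, Lamc1, Fosb, Maff and Egr1 are higher at 2 h than at 6 h. At 6 h Rrad (0.71) and Fos (0.55) remain above sham, Fosb and Maff lie near it and Egr1 is below.

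Activity-regulated effectors, the genes through which firing alters synapses and secretion, were higher as a list at both times. Of 25 tested genes 19 were higher (50.4% of all genes were) and 6 lower. Of the higher ones 3 (Rrad, Gadd45b and Inhba) met the filter through ECS arrays alone. Without overlap 7 lay above sham (6.29% of all genes) and 4 below (6.75%), and the median was 0.378 (0.413 at 2 h, 0.30 at 6 h, 0.315 within run 1, 0.269 within run 2). Without the filter the 31 genes on the array had a median of 0.278. Rrad, a small GTPase that restrains calcium channels, read 5.44 and 5.04 in sham, 7.86 and 7.22 at 2 h, and 5.96 and 5.93 at 6 h. It was above sham on each ECS array (2.84-fold) and differed by -1.60 ± 0.404 between 6 h and 2 h, and it met the filter through ECS arrays alone. Plat (tissue plasminogen activator), named after its values were seen, was at 1.04 ± 0.408, with 1.58 within run 1 and 0.50 within run 2. Members below sham without overlap included Lingo1, which inhibits axon growth (-1.32 ± 0.399, or -0.64 without sham replicate 1), Nptx1, a synaptic pentraxin (-0.87 ± 0.336), and Homer1, a scaffold of glutamate receptors named after its values were seen (-0.96 ± 0.403). For Nptx1 and for Homer1 only 1 of 2 tested probe sets lay below sham without overlap. The list therefore held genes of both signs.

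The glucocorticoid-responsive genes, targets of the adrenal steroid released in stress, had 12 of 22 higher, near the 50.4% of all genes, and a median of 0.0905 (0.173 without sham replicate 2). Without overlap 2 lay above sham and 1 below, against 6.29% and 6.75% of all genes. Cebpd and Hif3a on this list met the filter through ECS arrays alone. Fkbp5, a chaperone that dampens the glucocorticoid receptor, was at 0.66 ± 0.35, the cell cycle inhibitor Cdkn1a at 0.80 ± 0.401 and Klf9, a zinc finger factor, at -0.50 ± 0.24. Of 26 tested antioxidant and NRF2 target genes 18 were higher (50.4% of all genes) and 8 lower, with a median of 0.0489. Without overlap 1 (Srxn1) lay above sham and 1 (Gclm) below, against 6.29% and 6.75% of all genes. Keap1, the inhibitor of NRF2, was at 0.64 ± 0.334, the metallothionein Mt1 at 0.58 ± 0.31, and Gclm, a subunit of the enzyme that starts glutathione synthesis, at -0.50 ± 0.33 with all ECS arrays below sham.

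The list for folding and the unfolded protein response had 16 of 22 higher (50.4% of all genes), 5 above sham without overlap (6.29%) and 0 below (6.75%). The median was 0.086, with 0.221 within run 1, 0.0272 within run 2 and 0.288 without sham replicate 2. Manf, a secreted stress-response protein, read 8.30 and 9.05 in sham and 9.47, 9.63, 9.16 and 9.30 after ECS (0.71 ± 0.257). The disulfide isomerase Pdia6 read 6.16 and 5.93 in sham and 6.56, 6.95, 7.03 and 6.96 after ECS (0.83 ± 0.307). Xbp1, which drives the unfolded protein response, was at 0.53 ± 0.245 and the co-chaperone Dnajb9 at 0.33 ± 0.188. Heat shock proteins had 9 of 16 higher (50.4% of all genes), with a median of 0.00796. None lay above (6.29% of all genes) or below sham (6.75%) without overlap. Cytosolic ribosomal proteins were higher in 13 of 13 (50.4% of all genes) with 3 above sham without overlap (6.29%), but by a median of 0.123, which was 0.0226 without sham replicate 2 and 0.239 without sham replicate 1. Rpl19 was at 0.24 ± 0.123 and Rps3 at 0.15 ± 0.0801. Oxidative phosphorylation genes had 17 of 24 lower (49.6% of all genes), with 3 below sham without overlap (6.75%) and 0 above (6.29%). Their median was -0.0859, which was 0.0921 with median subtraction in place of quantile normalization. Sdha, a subunit of complex II, differed by -0.21 ± 0.103 between groups with SDs of 0.0184 (sham) and 0.0166 (ECS). Its difference depended on the normalization, and was -0.0296 with median subtraction and -0.102 without scaling. Circadian clock genes had 6 of 16 higher (50.4% of all genes) and a median of -0.0322. Without overlap 3 lay below sham (6.75% of all genes) and 1 above (6.29%). The 1 above was Per3, which met the filter through ECS arrays alone. Hlf, a clock output factor, was at -1.87 ± 0.478, and only 1 of its 2 tested probe sets lay below sham without overlap.

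Markers of other cells of the dissected area were compared in the same way. Oligodendrocyte markers were lower in 6 of 8 (49.6% of all genes), with 4 below sham without overlap (6.75% of all genes) and a median of -0.461 (-0.567 within run 1, -0.273 within run 2). The summed signal of the 11 such genes on the array was 4042 and 3685 in sham and 3331, 3280, 2750 and 2933 after ECS, so all ECS arrays were lower. Mbp (myelin basic protein) read 10.76 and 10.55 in sham and 10.27, 10.36, 9.98 and 10.05 after ECS (-0.49 ± 0.172), with 5 of 7 tested probe sets below sham without overlap. Cldn11, the tight junction protein of myelin, was at -0.95 ± 0.31 and Olig1, a lineage factor, at -0.57 ± 0.29. Astrocyte markers had 9 of 16 higher (50.4% of all genes) with a median of 0.17 (0.0773 without sham replicate 2). No astrocyte marker lay above (6.29% of all genes) or below sham (6.75%) without overlap. Among these markers Agt (angiotensinogen) was at 0.81 ± 0.367, the glutamate transporter Slc1a2 at -0.69 ± 0.349 and Gfap, the filament protein of astrocytes, at 0.27 ± 0.292. Microglia and macrophage markers had a median of -0.157 (-0.0131 without sham replicate 1) and none of 10 without overlap, against 6.29% of all genes above and 6.75% below. Endothelial and mural markers had 8 of 10 higher (50.4% of all genes), with a median of 0.412 (0.245 without sham replicate 2). Without overlap 2 lay above sham (6.29% of all genes) and 1 below (6.75%). Yet 4 of the 8, including the 2 above without overlap, met the filter through ECS arrays alone. Summed signals overlapped (2037 and 2095 in sham, from 1977 to 2466 after ECS). Pdgfrb, a receptor of pericytes, was at 0.78 ± 0.347, and Acta2, the actin of smooth muscle, at -1.19 ± 0.439, though it met the filter through the sham arrays alone.

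Lists for other regions than cortex and hippocampus gave no common direction. Genes of thalamus and striatum had 4 of 8 higher (median 0.0632), with Pde10a, a phosphodiesterase of striatal neurons, at -0.97 ± 0.378. The list of choroid plexus, ependyma and meninges had 4 tested genes, and its summed signal of 1658 and 1554 in sham and 492 to 748 after ECS was mostly that of Ptgds. Prostaglandin synthesis genes had 3 of 5 higher. Extracellular matrix genes had 9 of 18 higher (50.4% of all genes). Without overlap 1 lay above sham and 4 below, against 6.29% and 6.75% of all genes. The 1 above was the laminin chain Lamc1 (1.91 above sham at 2 h and 0.31 at 6 h), for which only 1 of 2 tested probe sets had no overlap. On this list Hspg2 met the filter through ECS arrays alone and Lama2 through sham arrays alone. Of the sex-linked genes Xist lay between 4.04 and 4.96 on all arrays, near the floor, while the Y-linked Eif2s3y and Kdm5d were detected on each array (6.69 to 7.71 and 7.08 to 8.80) and were 0.48 ± 0.299 and 0.75 ± 0.386 higher after ECS.

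**Figure D4:**
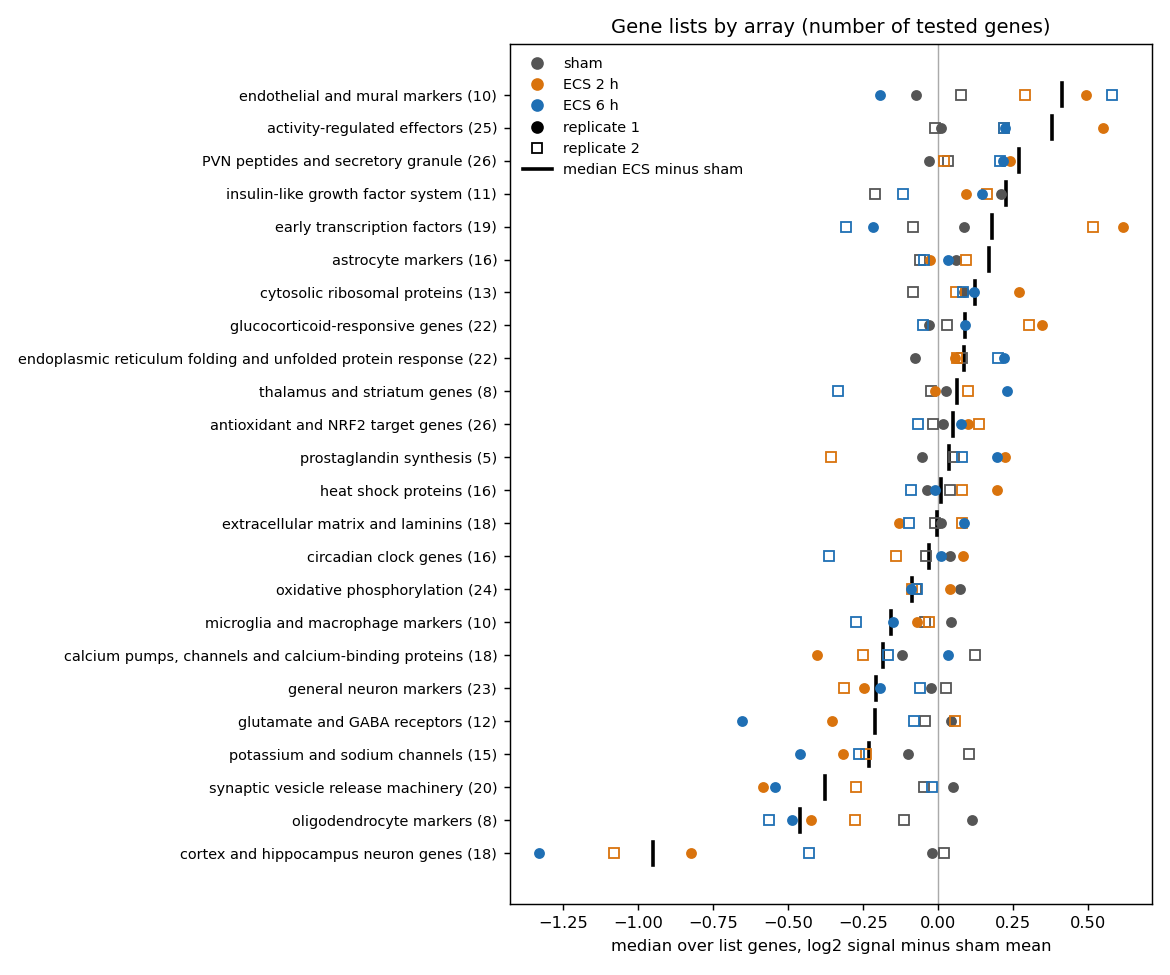
Median over the tested genes of each list of the log2 signal minus the sham mean (horizontal axis) on each array, for the 24 lists with at least 5 tested genes, with grey for sham, orange for ECS at 2 h, blue for ECS at 6 h, filled circles for replicate 1 and open squares for replicate 2. A black bar marks the median of the genes' differences between ECS and sham, which need not lie among the medians of single arrays. The cortex and hippocampus neuron genes have the lowest bar, with medians of -0.823, -1.08, -1.33 and -0.432 on the ECS arrays, and on replicate 2 at 6 h the oligodendrocyte markers lie lower (-0.564).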

How the data were processed

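The authors deposited 1 intensity per probe set and array. The submitters' processing notes name MAS5; its version and scaling target were not given in the sources used here. RNA was amplified from small amounts before labelling, per the labels' protocols. Array medians of the deposited table differ, so quantile normalization over the 6 arrays and log2 of signal + 16 were applied. The 64 control probe sets were left out, and of the other 22626 the 12662 (56%) at or above their array's median on at least 2 arrays were tested. That filter can be met by 1 side alone. Symbols came from the array annotation, 20380 probe sets carried 1 symbol, and 20351 matched RefSeq by Entrez identifier.

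Differences were tested through limma 3.58.1 in R 4.3.3 with 1 mean for the 4 ECS arrays and 1 for the 2 sham arrays, two-sided, with a variance trend (4 residual and 7.82 prior degrees of freedom) and p-values adjusted by Benjamini-Hochberg (threshold 0.05). The values at each time and the contrast of 6 h with 2 h came from a fit with 1 mean per group. The procedure was checked on simulated data. No array was a copy of another. 

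Named genes are the 12 higher and 12 lower of smallest p without overlap, up to 4 members of smallest p per list, and a few PVN and marker genes. Most others are marked in the text. Pou3f2, Otp, Ttr, Slc6a13 and Xist fall outside this rule, as do genes given only for how they met the signal filter. For lists, each of the 7332 genes counted through its brightest probe set. The members and the 27 lists were chosen with earlier results of these data known. Alternatives were offsets of 1 and 64, other scalings, filters and variance settings, the replicate block, 1 mean per group, the mean of a gene's probe sets and leaving out each array. The replicate number was read as the run, since the series' design text states 2 rounds of different animals. Between pairs of groups, same-numbered arrays deviated from their group means together, with correlations of 0.228, 0.185 and 0.151.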

Additional observations from a re-analysis of the deposited data

Results flagged for a closer look

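In groups of 4 ECS arrays a single array stood apart from the other 3 for 5 of the 88 named probe sets, by a test that chance passes in about 1 of 20 groups. Ctnnb1 was at 7.592 on replicate 2 at 2 h against 6.273 to 6.364 on the others, Lingo1 at 6.885 on replicate 1 at 6 h against 6.172 to 6.285, and Pdia6 at 6.558 on replicate 1 at 2 h against 6.953 to 7.031. Eif2s3y was at 7.706 on replicate 2 at 6 h against 7.29 to 7.319. Tbr1 was at 6.082 on replicate 2 at 6 h against 4.274 to 4.49, on the array whose cortex and hippocampus signal was nearest to sham. Egr1 moved in opposite directions at the 2 times, above both sham arrays on each 2 h array and below both on each 6 h array, with a difference of -1.53 between 6 h and 2 h that had a limma adjusted p of 0.999.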

How the results depend on the processing

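Of 1553 values of the 88 named probe sets under 18 alternatives, 1550 kept their direction. The exceptions were Gfap (-0.02878) and Sim1 (-0.1031) without sham replicate 2 and Egr1 (-0.1624) without ECS replicate 1 at 2 h. With 1 array left out, they ran from -0.02878 to 0.5639, -0.1031 to 0.5605 and -0.1624 to 0.4852. With the replicate block limma called 0 probe sets (smallest adjusted p 0.0807, 786 at an unadjusted p under 0.05). Leaving out 1 array gave 0 to 10 calls, and 10 only without replicate 2 at 6 h.

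The counts of at least 2-fold higher and lower probe sets without overlap were 183 and 267 when 1 was added before the log, 5 and 30 when 64 was added, and 23 and 47 after filtering at the 75th percentile. Without scaling, 40 were at least 2-fold higher and 440 lay above sham. Counts above and below sham were 1414 and 1442 without a filter (22626 tested) and 375 and 427 with the 75th percentile filter (6434 tested). With 1 array left out, non-overlap is easier to meet: 1121 to 2539 lay above, 1194 to 2622 below, 88 to 390 were at least 2-fold higher and 132 to 378 lower. The highest of each came without sham replicate 2, which leaves 1 sham array, assumed to vary like the others. Of 486 list medians 439 moved by less than the spread between arrays and 47 by more. Median subtraction shifted the median of all probe sets to 0.0691.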
